A study of Mus musculus with 6 samples.

Results

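The genes described here are 10 genes of the pluripotency network: Pou5f1, Nanog, Sox2, Klf2, Klf4, Klf5, Esrrb, Zfp42, Tcl1 and Tbx3. They were chosen by symbol, and every probe annotated to them was used, 21 of the 45281 probes on the Illumina bead array. Of the 10 genes, 8 passed the detection filter and were tested, among 10913 tested genes. HFGSC arrays (n = 2) held RNA of cells that the study derived from hair follicles of dorsal skin and calls germline stem cells, from mice aged 4 months. GSC arrays (n = 2) held RNA of testis germline stem cells from mice aged 3 months, and HF arrays (n = 2) came from hair follicles of mice aged 2 months, also dorsal skin. All mice were OG2, a strain with a fluorescent reporter that Pou5f1 regulatory sequence drives, so the HF cells carry it too. Whether reporter transcripts reach the Pou5f1 probes was not tested. The labels give no culture conditions, do not say whether replicates came from separate animals, and give a different age to each group, so age and group cannot be told apart.

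Pluripotent cells are held in their state by a small set of transcription factors that bind each other's genes. Pou5f1 and Sox2 encode a POU and an HMG box protein that bind joint DNA elements, and Nanog encodes a homeobox protein that acts with them. Klf2, Klf4 and Klf5 encode zinc finger proteins, Esrrb an orphan nuclear receptor, Zfp42 (Rex-1) a zinc finger protein used as a marker of the undifferentiated state, and Tbx3 a T-box protein. Tcl1 is not a transcription factor: it encodes a co-activator of the AKT kinases and is a known target of Pou5f1. In the mouse germline Pou5f1 stays on in primordial germ cells and undifferentiated spermatogonia, whereas Klf4 and Klf5 also act in skin and gut epithelium and Tbx3 in limb and skin development.

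The upstream sequences of 4 of these genes are shown so that motifs known from the network can be read in place: Pou5f1 for the half-site, and Zfp42, Nanog and Sox2 for the octamer part. RefSeq promoters of build GRCm38.p6 were matched for 8 of the 10 genes. The 250 bases before the outermost annotated start are printed 5′ to 3′ in the direction of the gene. Capitals mark ATGCAAA, which is part of the octamer that POU factors bind, and AGGTCA, the half-site of nuclear receptors, each read on either strand, so that the letters of the opposite strand appear where the match lies there. The 2 motifs do not overlap in these sequences.
Pou5f1, chr17:35505782-35506031, plus strand: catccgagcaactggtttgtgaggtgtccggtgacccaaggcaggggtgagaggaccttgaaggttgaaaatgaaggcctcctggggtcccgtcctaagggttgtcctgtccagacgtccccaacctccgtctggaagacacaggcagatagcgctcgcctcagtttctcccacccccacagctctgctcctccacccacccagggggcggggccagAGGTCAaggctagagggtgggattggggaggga
Zfp42, chr8:43307010-43307259, minus strand: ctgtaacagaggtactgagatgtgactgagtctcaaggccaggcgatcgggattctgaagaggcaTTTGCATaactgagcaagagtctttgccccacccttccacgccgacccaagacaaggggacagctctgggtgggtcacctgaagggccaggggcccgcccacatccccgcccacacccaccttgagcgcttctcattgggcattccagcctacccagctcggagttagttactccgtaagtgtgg
Nanog, chr6:122707239-122707488, plus strand: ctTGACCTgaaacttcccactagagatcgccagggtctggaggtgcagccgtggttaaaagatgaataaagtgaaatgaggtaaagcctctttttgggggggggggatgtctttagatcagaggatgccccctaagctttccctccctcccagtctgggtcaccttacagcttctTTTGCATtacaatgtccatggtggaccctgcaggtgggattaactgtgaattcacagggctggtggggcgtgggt
Sox2, chr3:34649745-34649994, plus strand: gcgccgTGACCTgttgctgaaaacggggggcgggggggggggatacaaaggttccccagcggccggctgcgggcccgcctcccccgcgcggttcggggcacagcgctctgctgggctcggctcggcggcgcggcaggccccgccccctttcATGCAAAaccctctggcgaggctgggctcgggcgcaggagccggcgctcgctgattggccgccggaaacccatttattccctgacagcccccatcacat
The Pou5f1 sequence holds 1 half-site, 33 bases before the start, beside a GC box (GGGCGG), and not the octamer part. The motif ATGCAAA occurs once in each of Zfp42, Nanog and Sox2, at 185, 75 and 99 bases before the start. These are 3 of the 8 genes with a promoter, and 4.12% of all 32851 RefSeq promoters of this length hold the motif. AGGTCA was found in 3 of the 8 genes and in 14% of all promoters, and GGGCGG in 6 of the 8 and in 32.7% of all. A match describes letters and shows no binding. Of the 3 genes with ATGCAAA, Zfp42 was detected in HFGSC and GSC, whereas Nanog and Sox2 were not detected on any array.

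Levels are given as log2 intensities after background correction and quantile normalization. A probe was called detected on an array when its detection p was under 0.05. The arrays detected between 16094 and 19552 of the 45281 probes, and with 2 arrays a group their number limits the precision of every value. With 2 arrays on each side the smallest two-sided p of an exact test is 0.333, so calls rest on limma, with p adjusted over all tested genes and a threshold of 0.05. The marker check of the labels was mixed. Of 17 markers of spermatogonia both arrays of the group detected 15 in HFGSC, 15 in GSC and 2 in HF. Ret and Tex19.1 had the smallest adjusted p in both comparisons with HF (Ret at least 264-fold higher in HFGSC and 220-fold in GSC). Of the 15 tested, 13 entered the test without HF, that is, without detection on both HF arrays. Ret and Tex19.1 were among them, so a difference from HF was built into their entry. Of 17 markers of keratinocytes and follicle 8 were detected in HFGSC, 8 in GSC and 4 in HF, and Krt5, Krt14, Krt15 and Trp63, which define basal and bulge keratinocytes, were not detected on any array. Their summed intensity was between 11780 and 17210 in HFGSC, between 7321 and 8294 in GSC and between 4617 and 5106 in HF. Col17a1, a hemidesmosome collagen of that list, was at least 13.2-fold higher in HFGSC and 13.3-fold in GSC than in HF. It was among the 5 of 9 tested markers of that list that entered without HF. HF is used here as the label of a group and not as a verified cell type. Of 14 fibroblast markers 12 were detected in HFGSC, 11 in GSC and 8 in HF. Their summed intensity was 32201 and 78597 on HFGSC replicates 1 and 2, between 26729 and 28036 in GSC and between 53681 and 55158 in HF. Single fibroblast markers moved in both directions: Dcn was at least 171-fold and Thy1, which also marks mouse spermatogonial stem cells, at least 78.0-fold higher in HFGSC than in HF, whereas Vim was 7.80-fold lower in HFGSC and 13.7-fold lower in GSC. Dcn and Thy1 were among the 4 of 12 tested fibroblast markers that entered without HF. The call of Vim in HFGSC was lost when HF replicate 1 or HF replicate 2 was left out. Leukocyte and endothelial markers summed to between 740 and 1362 in HFGSC and between 1526 and 2024 in GSC. In HF the sum was between 6184 and 7085. Single markers of this list did not share a direction. Eng, an endothelial marker, was 44.0-fold lower in HFGSC and 70.6-fold lower in GSC than in HF. Both arrays of a group detected Eng in HF alone, so these folds include readings below detection. Cd14 was 6.41-fold and 11.75-fold lower, in calls that held in 6 and 12 of the 15 alternatives of the closing section. Fcer1g was at least 11.1-fold and Pecam1 at least 1.14-fold higher in GSC than in HF. Both had entered without HF, and the call of Pecam1 was lost without HF replicate 1. The endothelial markers Cdh5 and Tek did not pass in either comparison with HF. Sertoli and Leydig cell markers summed to between 7321 and 14014 in HFGSC, between 7400 and 8971 in GSC and between 5594 and 5747 in HF. Between HFGSC and GSC 3 markers of these last lists passed: Trf was 26.3-fold and Fcer1g at least 15.9-fold lower and Cldn11 at least 4.49-fold higher in HFGSC. The call of Cldn11 held in 6 of the 15 alternatives. It was lost with the authors' deposited values and without background correction, among others. The call of Trf held in 12 of the 15 and that of Fcer1g in 14. The summed intensity of the spermatogonial markers was 120889 and 77966 on the same 2 HFGSC arrays, between 128854 and 132046 in GSC and between 1325 and 2505 in HF. The second HFGSC array was thus higher in fibroblast and lower in spermatogonial markers than the first. The part of these marker differences in the results was not tested.

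Pou5f1 had its highest level in GSC, a lower one in HFGSC and the lowest in HF. Its brighter probe read 8.44 and 8.13 on the HFGSC arrays, 10.49 and 11.11 on the GSC arrays, and 6.61 and 6.81 on the HF arrays. The groups did not overlap, which was so for 65% of all tested genes in HFGSC against HF and 67.5% in GSC against HF. In HFGSC against GSC it was so for 32.3%. A second probe to the same transcript read 8.45 and 8.01 in HFGSC and 10.41 and 10.41 in GSC. In HF the probes differed in detection. The first was detected on both arrays at detection p of 0.031 and 0.0299, near the limit, and the second was not detected, at 5.01 and 5.38. In GSC against HF the first probe was 17.1-fold higher (log2 difference 4.10, SE 0.51, adjusted p = 0.00128). The second was at least 15.6-fold higher (adjusted p = 0.000547 in the fit of every probe). "At least" marks a lower bound, used where the dimmer group was not detected on either array: the brighter group's mean was set against the lowest detected signal of those arrays or the probe's own signal, whichever was higher. Where a single array of the dimmer group detected the probe, the plain fold is given and includes a reading below detection. In HFGSC against HF the first probe was 2.98-fold higher and did not pass (log2 difference 1.58, SE 0.51, 95% interval 0.39 to 2.76, adjusted p = 0.0567). In the fit of every probe the first again did not pass (adjusted p = 0.0596) and the second did, at least 3.44-fold higher (adjusted p = 0.00483), so the call of Pou5f1 in HFGSC depended on the probe. The gene also passed with the mean of its detected probes (adjusted p = 0.00995), with the replicate number as a block (adjusted p = 0.0106), with median scaling (adjusted p = 0.025) and without the mean-variance trend (adjusted p = 0.0277). In RNA of whole samples, fewer cells that express a gene and less RNA per cell cannot be told apart, which holds for every level below.

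Neither of the 2 probes for Nanog, nor of the 2 for Sox2, was detected on any array. The Nanog probe with the higher mean read 5.43 and 5.45 in HFGSC, 5.35 and 5.02 in GSC, and 5.12 and 5.05 in HF, with detection p between 0.168 and 0.554. The Sox2 probe with the higher mean read 5.16 and 5.44 in HFGSC, 5.36 and 5.51 in GSC, and 5.30 and 5.75 in HF, with detection p between 0.138 and 0.33. Both genes stayed out of the test for this reason. In a fit without the detection filter Nanog differed by 0.36 (95% interval 0.05 to 0.67) in HFGSC against HF and by 0.10 (-0.21 to 0.41) in GSC against HF, and neither passed (adjusted p = 0.136 and 0.68). Sox2 differed by -0.23 (-0.68 to 0.23) in HFGSC and by -0.09 (-0.54 to 0.37) in GSC (adjusted p = 0.521 and 0.82). A probe at background gives no level, so this does not show that the transcripts were absent.

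**Figure D1:**
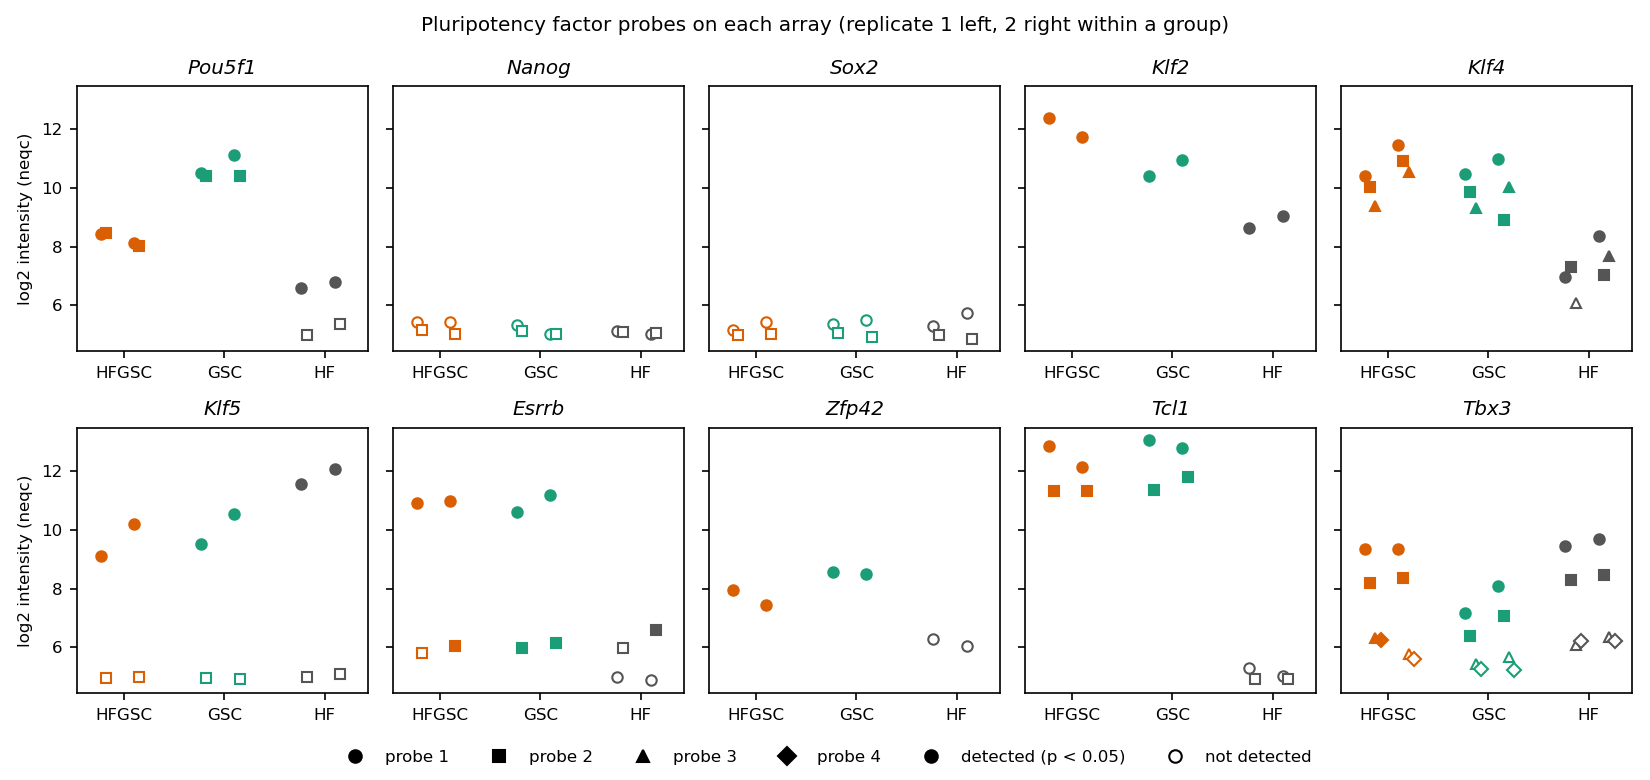
Log2 intensity of all 21 probes of the 10 genes on each array (vertical axis), by group (horizontal axis), with replicate 1 left of replicate 2. Each symbol is 1 probe on 1 array, and open symbols mark probes that were not detected. Pou5f1 stands higher in GSC than in HFGSC, Nanog and Sox2 are open throughout, and Tcl1 and the brighter Esrrb probe are open in HF alone.

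Of the Krüppel-like factors, Klf2 and Klf4 were higher and Klf5 lower in the germline stem cell groups than in HF. Klf2, a Pou5f1-dependent factor of the naive state, read 12.35 and 11.73 in HFGSC, 10.39 and 10.94 in GSC, and 8.65 and 9.05 in HF on its single probe. It was highest in HFGSC and lowest in HF, with no overlap of groups. Of all tested genes 65% did not overlap in HFGSC against HF, 67.5% in GSC against HF and 32.3% in HFGSC against GSC. Klf2 was 9.12-fold higher in HFGSC than in HF (log2 difference 3.19, SE 0.44, adjusted p = 0.00224) and 3.51-fold higher in GSC than in HF (log2 difference 1.81, SE 0.44, adjusted p = 0.0182).

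Klf4, a target of LIF and STAT3 signalling and one of the classical reprogramming factors, was read by 3 probes. The brightest gave 10.40 and 11.45 in HFGSC, 10.47 and 10.97 in GSC, and 6.95 and 8.37 in HF. HFGSC and GSC overlapped and both lay above HF. Klf4 was 9.61-fold higher in HFGSC (log2 difference 3.26, SE 0.63, adjusted p = 0.0092) and 8.33-fold higher in GSC (log2 difference 3.06, SE 0.63, adjusted p = 0.0101). The other 2 probes passed in both comparisons too, at 9.93-fold and 8.39-fold in HFGSC and 4.67-fold and 6.83-fold in GSC. The probes disagreed on the GSC replicates. On replicate 2 the brightest probe and 1 other read higher than on replicate 1, and the remaining probe read lower (9.86 on replicate 1, 8.90 on replicate 2).

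Klf5, which acts in epithelial growth as well as in pluripotent cells, read 9.11 and 10.18 in HFGSC, 9.52 and 10.52 in GSC, and 11.57 and 12.07 in HF. Both HF arrays were above all 4 others. It was 4.50-fold lower in HFGSC (log2 difference -2.17, SE 0.54, adjusted p = 0.0242) and 3.47-fold lower in GSC (log2 difference -1.80, SE 0.54, adjusted p = 0.0405). A second Klf5 probe was not detected on any array. On HFGSC replicate 2, the array with more fibroblast and less spermatogonial marker signal, Klf4 and Klf5 were higher and Klf2, Tcl1, Zfp42 and Pou5f1 lower than on replicate 1. This was not particular to HFGSC for Klf4, Klf5, Tcl1 and Zfp42, which moved the same way on replicate 2 of GSC and HF. Klf2 and Pou5f1 were higher on replicate 2 of GSC and HF.

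By their brightest probes Tcl1 and Esrrb had the largest fitted differences from HF among the 8 tested genes. Tcl1 read 12.86 and 12.14 in HFGSC, 13.04 and 12.77 in GSC, and 5.30 and 5.02 in HF, where it was not detected. Relative to HF the rise was at least 66.3-fold in HFGSC (adjusted p = 0.000131) and at least 88.0-fold in GSC (adjusted p = 0.000114). A second Tcl1 probe was at least 29.2-fold and 34.7-fold higher. Esrrb, whose product can stand in for Nanog in mouse embryonic stem cells, read 10.91 and 10.97 in HFGSC, 10.59 and 11.16 in GSC, and 4.98 and 4.90 in HF, again not detected there. It was at least 22.5-fold above HF in HFGSC (adjusted p = 0.00031) and at least 21.5-fold above it in GSC (adjusted p = 0.000316). These values rest on the probe for the RefSeq transcript. The second Esrrb probe, annotated to a cDNA clone, stayed between 5.80 and 6.58 on all arrays and did not pass in either comparison (adjusted p = 0.464 and 0.661). With the mean of both detected probes the log2 difference of Esrrb was 2.82 in HFGSC and 2.86 in GSC, in place of 6.00 and 5.93. It still passed, but was then smaller than those of Klf4 (3.22) and Klf2 (3.19) in HFGSC and that of Pou5f1 (4.66) in GSC, while Tcl1 stayed first at 6.86 and 7.19.

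Zfp42 was higher in GSC and, by a narrow margin, in HFGSC than in HF. Its single probe read 7.95 and 7.44 in HFGSC, 8.56 and 8.51 in GSC, and 6.30 and 6.05 in HF, where it was not detected at p of 0.0588 and 0.0919. It was at least 4.25-fold higher in GSC than in HF (adjusted p = 0.00731). In HFGSC it was at least 2.37-fold higher (log2 difference 1.52, SE 0.45) and passed narrowly (adjusted p = 0.0438). That call was lost in 10 of the 15 alternatives, among them the authors' deposited values (adjusted p = 0.0738), no background correction (0.0711), no detection filter (0.115) and the fit of every probe (0.0511).

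Tbx3 was lower in GSC than in HF, and its difference between HFGSC and HF did not pass. Its brightest probe read 9.34 and 9.35 in HFGSC, 7.17 and 8.10 in GSC, and 9.43 and 9.68 in HF. The GSC arrays lay below all others. In GSC against HF it was 3.79-fold lower (log2 difference -1.92, SE 0.53, adjusted p = 0.0291), and the second detected probe was 3.15-fold lower (adjusted p = 0.0423). In HFGSC against HF the difference was -0.21 (95% interval -1.44 to 1.03, adjusted p = 0.807), and all 4 arrays lay within 9.34 to 9.68. The other 2 Tbx3 probes were each detected on 1 array, HFGSC replicate 1.

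Against HF, 5 of the 10 genes passed as higher and 1 as lower in HFGSC, 2 were tested and did not pass (Pou5f1 and Tbx3), and 2 were not detected (Nanog and Sox2). Of all tested genes 26.5% passed in that comparison, 17.2% higher and 9.37% lower. In GSC 6 of the 10 genes passed as higher, 2 as lower (Klf5 and Tbx3), and Nanog and Sox2 were not detected, where 32.1% of all tested genes passed, 19.5% higher and 12.6% lower. Esrrb, Tcl1 and Zfp42 passed the detection filter only through HFGSC and GSC, so a difference from HF was built into their entry. The counts and medians of this paragraph include them and are a description. The median fitted log2 difference of the 8 tested genes was 2.38 in HFGSC and 2.71 in GSC (2.57 with lower bounds), against 0.05 and 0.07 over all tested genes. Both comparisons use the same HF arrays. Of the 21 probes, 14 passed the filter. In the fit of every probe 8 were higher and 1 lower in HFGSC, where 23.3% of all probes passed (14.1% higher, 9.28% lower). In GSC 10 were higher and 3 lower, where 28.6% passed (16.3% higher, 12.3% lower).

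Several calls were lost when 1 array was left out of the fit, which also leaves fewer residual degrees of freedom. The lost calls kept their direction. In HFGSC against HF the calls of Tcl1, Esrrb and Klf2 held with any 1 array left out. The call of Klf4 was lost without HF replicate 1 (adjusted p = 0.0503), that of Klf5 without HF replicate 1 (0.075), HF replicate 2 (0.142) or HFGSC replicate 1 (0.0975), and that of Zfp42 without any 1 of the 6 arrays (0.0526 to 0.262). The difference of Klf5 was -2.42, -1.92 and -1.64 in these 3 fits, in place of -2.17. That of Zfp42 ran from 1.26 to 1.78 and was 1.52, as reported, without either GSC array, which takes no part in it. Without HF replicate 1, 3 of the 8 tested genes passed, all higher. In GSC against HF the calls of Tcl1, Esrrb and Pou5f1 held with any 1 array left out. Those of Klf2, Klf4, Klf5, Tbx3 and Zfp42 were lost without HF replicate 1 (0.0579 to 0.134), which left 3 genes. Without HF replicate 2 those of Klf2, Klf5, Tbx3 and Zfp42 were lost (0.0526 to 0.203), which left 4. Without GSC replicate 1 Klf5 and Tbx3 lost theirs (0.202 and 0.148), and without GSC replicate 2 Klf2, Klf4 and Klf5 did (0.11, 0.0692 and 0.0571), leaving 5. Klf5 in GSC also missed the threshold with median scaling (0.0553), without the detection filter (0.0567) and without the mean-variance trend (0.0503).

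**Figure D2:**
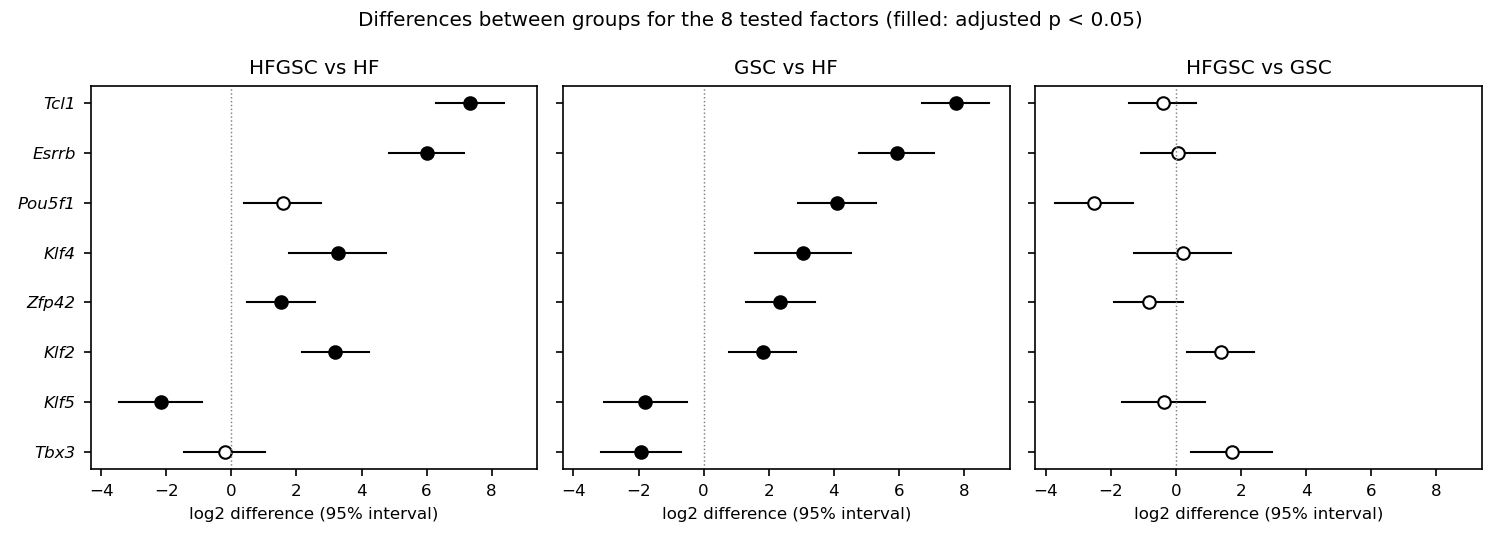
Fitted log2 differences of the 8 tested genes (points) with their 95% intervals (lines) in the 3 comparisons, with filled points for an adjusted p under 0.05. Tcl1 and Esrrb lie farthest to the right against HF, Klf5 lies left of 0 against HF in both groups, and no point is filled in HFGSC against GSC.

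HFGSC and GSC were also set against each other. None of the 8 tested genes passed in limma, where 0.44% of all tested genes did (0.174% higher, 0.266% lower), and 3 had an unadjusted p under 0.05. None of the 14 probes passed either, where 0.316% of all probes did (0.131% higher, 0.185% lower). Blocking on the replicate number let 1 gene pass, Pou5f1. Pou5f1 was 5.73-fold lower in HFGSC (log2 difference -2.52, SE 0.51, 95% interval -3.70 to -1.33), which did not pass over all genes (adjusted p = 0.126) and passed with the block (adjusted p = 0.0199). Its second probe was 4.53-fold lower (adjusted p = 0.197). Klf2 was 2.60-fold higher in HFGSC (log2 difference 1.38, 95% interval 0.35 to 2.40, adjusted p = 0.436) and Tbx3 was 3.28-fold higher (log2 difference 1.72, 95% interval 0.48 to 2.95, adjusted p = 0.4). The arrays of the 2 groups did not overlap for 4 of the 8 genes, these 3 and Zfp42, which was so for 32.3% of all tested genes. For Esrrb the difference was 0.07 (95% interval -1.08 to 1.21), for Klf4 0.21 (-1.28 to 1.69), for Klf5 -0.37 (-1.65 to 0.90), for Tcl1 -0.41 (-1.45 to 0.63) and for Zfp42 -0.84 (-1.89 to 0.21). These intervals leave room for differences of more than 1 log2 unit in both directions for Esrrb and Klf4 and toward lower levels for Klf5, Tcl1 and Zfp42.

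**Figure D3:**
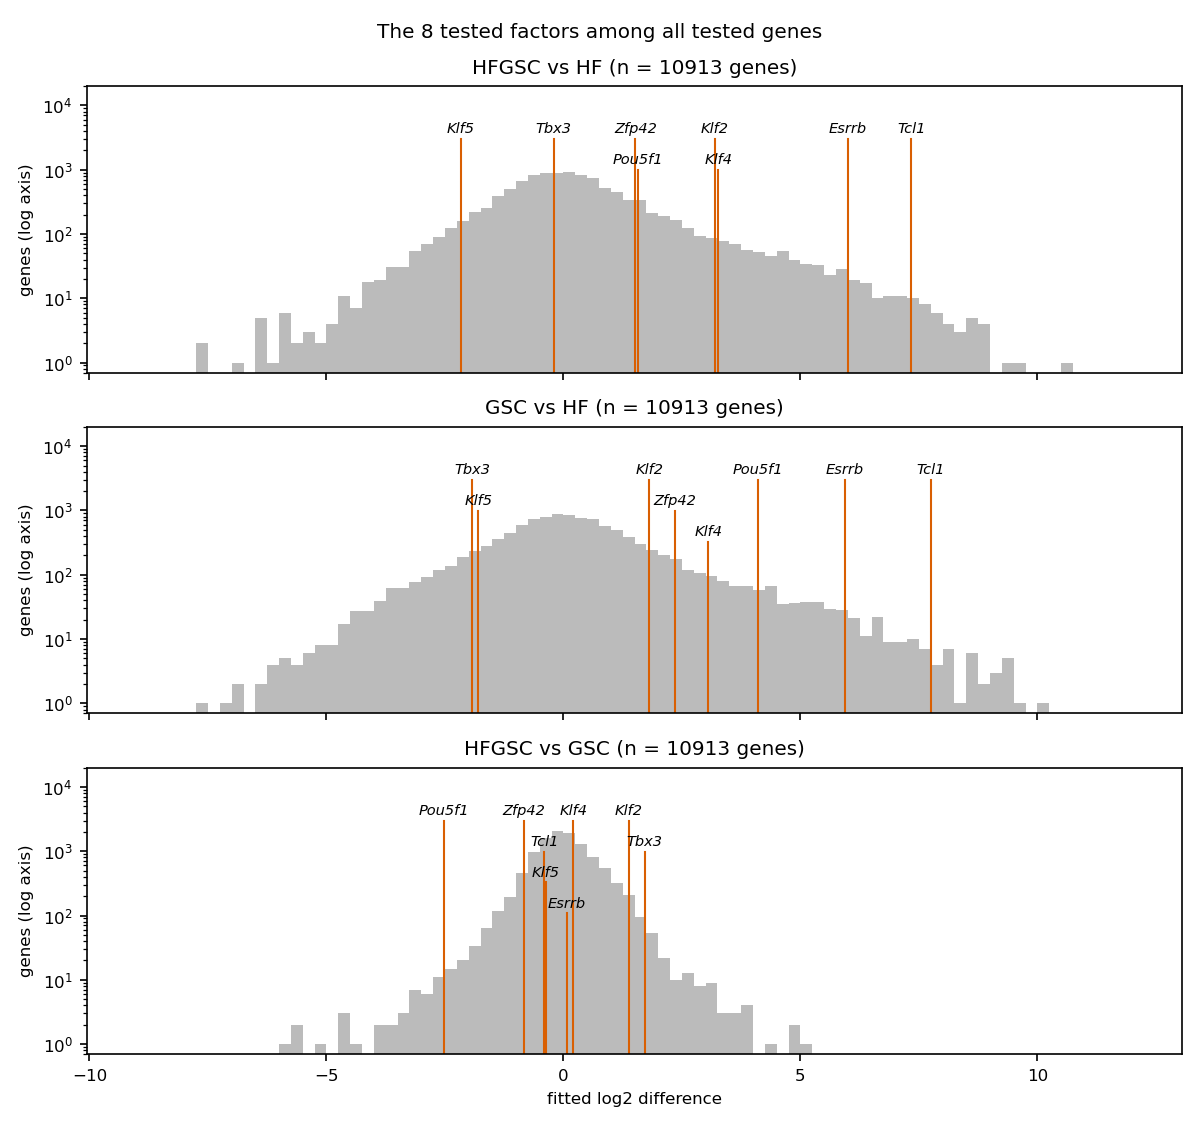
Distribution of the fitted log2 differences of all 10913 tested genes (grey bars, logarithmic vertical axis) in each comparison, with the 8 tested pluripotency genes as orange lines. Against HF they run from Klf5 or Tbx3 on the left to Tcl1 on the right, and in HFGSC against GSC Pou5f1 lies farthest left at -2.52.

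Relatives of these factors were read in the same fit. The share of all tested genes that passed, for comparison with the counts, was 17.2% higher and 9.37% lower in HFGSC against HF and 19.5% higher and 12.6% lower in GSC against HF, with medians of 0.05 and 0.07. Genes that HF arrays did not both detect entered the test only through HFGSC or GSC. Their entry thus favoured a rise from HF, though not every such gene was higher. Klf1 entered this way and differed by -0.191 in HFGSC and -0.125 in GSC, without passing. Of 14 other Klf genes on the array 7 were tested, and none passed in HFGSC against HF, while 1 fell in GSC: Klf3, a transcriptional repressor, was 5.02-fold lower (adjusted p = 0.00723, and 0.0518 without HF replicate 1). Their median log2 difference was -0.19 in HFGSC and -0.13 in GSC. Klf17 was among 5 that were not detected on any array. Of 18 other Sox genes 12 were tested, and 8 rose in HFGSC and 7 in GSC and none passed as lower. Of these 12 genes 6 had entered without HF (Sox3, Sox5, Sox10, Sox13, Sox18 and Sox21), so the count and the medians of 1.83 and 1.78 describe the genes that reached detection. Without HF replicate 1, 4 passed as higher in HFGSC and 2 in GSC, and without HF replicate 2, 4 did in GSC. In both comparisons 1 passed as lower with the stricter detection filter or the mean of detected probes. Sox13 was at least 11.2-fold higher in HFGSC and at least 10.3-fold in GSC (adjusted p = 0.000847 and 0.000826). Sox4, a regulator of progenitor cells, was 4.15-fold and 3.69-fold higher (adjusted p = 0.00347 and 0.00442, and 0.11 and 0.154 with the mean of its detected probes). Sox3, the relative of Sox2 that is known in mouse spermatogonia, read 7.27 and 6.42 in HFGSC, 7.25 and 8.29 in GSC, and 5.29 and 5.37 in HF. The rise in GSC was at least 2.50-fold (adjusted p = 0.0085, and 0.0525 without HF replicate 1), and the difference in HFGSC did not pass (adjusted p = 0.0555). Sox15 was not detected on any array. Of 13 other POU genes 8 were on the array, 4 were tested and 3 passed as higher in both groups. All 4 had entered without HF. The count was 2 in both groups without HF replicate 1 and 2 in GSC without GSC replicate 2. Pou3f1, known in mouse spermatogonial stem cells as a GDNF-induced factor, was at least 34.6-fold higher in HFGSC and at least 40.7-fold in GSC (adjusted p = 0.00037 and 0.000316). Pou4f1 was at least 6.43-fold and 11.4-fold higher. Of 15 other T-box genes on the array 4 were tested, of which 2 passed as higher in HFGSC (Eomes and Tbx1) and 1 in GSC (Tbx1), all near background: the lower bound for Eomes was 1.02-fold and none could be given for Tbx1. These calls were all lost without HF replicate 1. That of Tbx1 in HFGSC held in 9 of the 14 alternatives that tested it. It was also lost without HF replicate 2, without either HFGSC array and without the mean-variance trend. Esrra, the relative of Esrrb with roles in energy metabolism, was 3.14-fold lower in HFGSC (adjusted p = 0.0503, not passed) and 3.89-fold lower in GSC (adjusted p = 0.024). The GSC call was lost without HF replicate 1, HF replicate 2 or GSC replicate 1, at adjusted p up to 0.15. The other listed relatives of Esrrb and Tcl1 did not pass the filter. No gene of these families passed between HFGSC and GSC, and with the replicate block 1 Sox gene did.

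**Figure D4:**
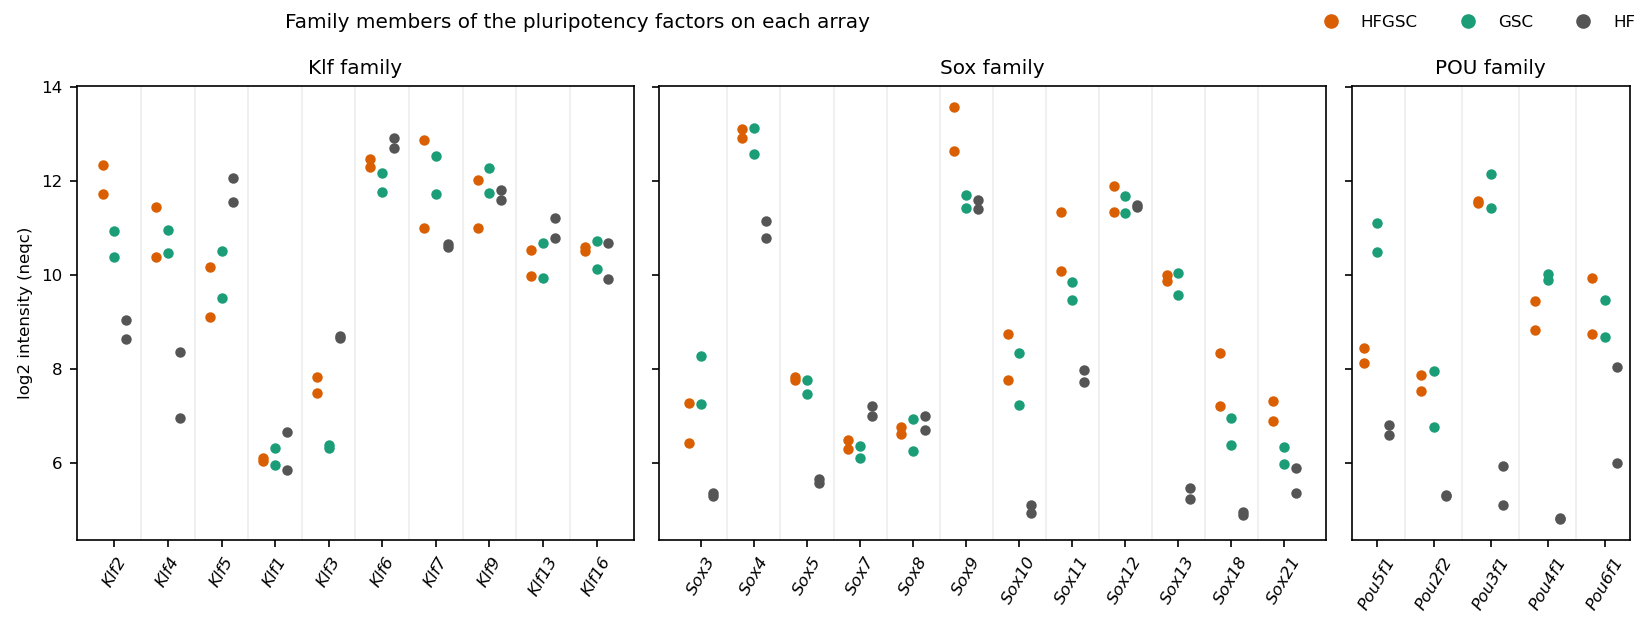
Log2 intensity on each array (vertical axis) of the tested genes of the Klf, Sox and POU lists with Klf2, Klf4, Klf5 and Pou5f1 (horizontal axis), coloured by group. Klf2 and Klf4 stand apart from HF upward and Klf5 downward, and Pou3f1 and Pou4f1 lie far above HF in both other groups.

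Other genes of the pluripotency network were mostly higher in the germline stem cell groups, again for members that reached detection. The array held 27 of 30 listed genes and 17 were tested. In HFGSC 11 rose and 1 fell, against 17.2% and 9.37% of all tested genes, and in GSC 14 rose and 1 fell, against 19.5% and 12.6%. Of the 17, 11 had entered without HF. The median log2 difference was 2.27 in HFGSC and 2.60 in GSC, against 0.05 and 0.07 over all genes. In HFGSC 7 passed as higher without HF replicate 1, and also 7 without HF replicate 2. Sall4, a zinc finger partner of Pou5f1, was at least 112-fold higher in HFGSC and at least 117-fold in GSC (adjusted p = 0.000118 and 0.000114). Dppa4 was at least 72.7-fold and 127-fold higher, and Dppa5a 31.6-fold and 52.5-fold higher. Lin28a, an RNA-binding protein that blocks let-7 maturation, rose in HFGSC (adjusted p = 0.00103) and at least 7.87-fold in GSC (adjusted p = 0.00124). Tfcp2l1, a factor of the naive state, was at least 8.91-fold and 17.1-fold higher. The gene that fell was Myc, 5.50-fold lower in HFGSC (adjusted p = 0.0192, up to 0.0791 without HF replicate 2 or HFGSC replicate 1) and at least 5.76-fold lower in GSC (adjusted p = 0.00638). A single HFGSC array detected Myc, so its 5.50-fold value includes a reading below detection. The genes not detected on any array were Dppa2, Tdgf1, Fgf4, Nr0b1, L1td1, Prdm14, Mycn and Foxd3. Only Dppa3 of this list passed between HFGSC and GSC. It read 6.00 and 5.47 in HFGSC, 8.15 and 8.61 in GSC, and 5.18 and 5.12 in HF. The reading on HFGSC replicate 2 lay below detection. With this reading included, Dppa3 was 6.28-fold lower in HFGSC than in GSC (adjusted p = 0.0322). That call held in 7 of 15 alternatives and was lost with any 1 array left out, without the detection filter and without the trend, at adjusted p up to 0.195.

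Signalling genes upstream of the network showed no common direction. Of 26 on the array 21 were tested, with 6 higher and 3 lower in HFGSC and 3 higher and 3 lower in GSC, where 26.5% and 32.1% of all tested genes passed in either direction, so the GSC count was near that background. The medians were -0.05 and -0.12. In HFGSC 3 passed as higher with median scaling or without HF replicate 2, and none as lower without HF replicate 1. Of the 21, 3 had entered without HF, Jak1 and Fgfr2 among them, so for both a difference from HF was built into their entry. Jak1, a kinase of LIF signalling, was at least 10.7-fold higher in HFGSC and at least 17.1-fold in GSC (adjusted p = 0.000708 and 0.000416). Il6st, the shared receptor chain of that pathway, was 5.14-fold lower in HFGSC and at least 15.4-fold lower in GSC (adjusted p = 0.0105 and 0.000909, and 0.0631 in HFGSC without HF replicate 1). Fgfr2 was at least 3.85-fold and 7.45-fold higher, and the ERK feedback phosphatase gene Dusp6 2.43-fold and 2.52-fold higher (calls lost with median scaling, at adjusted p = 0.153 and 0.0784). Id2, a BMP target, was 9.30-fold lower in HFGSC (call lost without HF replicate 1 or HFGSC replicate 1, at adjusted p up to 0.0588) and at least 14.1-fold lower in GSC. A single HFGSC array detected Id2, so its 9.30-fold value includes a reading below detection. Among listed repressors of Pou5f1, 7 of 9 were tested, and 2 rose in HFGSC (Dnmt3b and Dnmt3l) and 3 in GSC. Of all tested genes 17.2% and 19.5% passed as higher in these comparisons. Of the 7, 1 had entered without HF, Dnmt3l. Nr6a1, an orphan receptor that binds the AGGTCA half-site of the Pou5f1 promoter, read 8.79 and 8.32 in HFGSC, 9.97 and 9.95 in GSC, and 7.96 and 8.07 in HF. It was 3.86-fold higher in GSC than in HF (adjusted p = 0.0201, lost without any 1 HF or GSC array). Nr6a1 and Pou5f1 both read highest in GSC, but neither passed between HFGSC and GSC in the reported fit (limma adjusted p = 0.506 and 0.126). Regulation of Pou5f1 by Nr6a1 was not tested. Dnmt3b, a de novo DNA methyltransferase, was 9.36-fold higher in HFGSC (adjusted p = 0.00151) and higher by 4.26 log2 units in GSC (adjusted p = 0.000485). Of 14 genes of the primed epiblast and early lineages, 6 were tested and 7 were not detected on any array, among them Fgf5 and Otx2. In HFGSC 2 rose and 3 fell, against 17.2% and 9.37% of all tested genes. In GSC 1 rose and 2 fell, against 19.5% and 12.6%. Their medians were -1.28 and -1.27, against 0.05 and 0.07 over all tested genes. Of the 6, 3 had entered without HF (Pou3f1, Zic2 and Eomes). No gene of these 3 lists passed between HFGSC and GSC. Gata6, a factor of primitive endoderm, was at least 35.8-fold lower in HFGSC and 35.4-fold lower in GSC (adjusted p = 0.000233 and 0.000199).

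For each tested gene the 3 tested genes with the most similar profile over the 6 arrays were found by the root mean square difference of log2 values, each gene centred on its own mean. For Pou5f1 they were Dab1 at 0.16, Krt23 at 0.18 and Mapk13 at 0.20 log2 units. For Esrrb they were Ptk7 at 0.11, Tcf15 at 0.14 and Cds1 at 0.17. Klf2 was nearest to Sstr2 at 0.12, Klf4 to Gng7 at 0.17 and Zfp42 to Mtf1 at 0.11. For Klf5 they were Arrb1 at 0.10, Ybx3 at 0.11 and Tmem70 at 0.12, and for Tbx3 the nearest was Dlx1 at 0.18. Tcl1 had no gene closer than Tex13b at 0.23. The 6 arrays form 3 groups, so the likeness is given as a description, over 6 arrays.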

How the data were processed

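RNA was labelled with biotin after amplification and read on 6 bead arrays, according to the labels. Intensity values were deposited as linear bead summaries without normalization, each with a detection p-value, per the file headers. The other deposited table has log2 values after normalization by the authors. Its columns share the median of 7.046 and lie within 0.148 of quantile-normalized log2 intensities. Per the submitters' processing notes, GenomeStudio 2011.1 and R 3.0.2 were used, in roles that are not given.

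Probes were named from the platform annotation. The function neqc (limma 3.58.1, R 4.3.3) corrected the background, added an offset of 16 and normalized by quantiles. A probe was kept when both arrays of any group detected it, and the brightest one stood for its gene. Linear models were fitted to all 6 arrays (3 residual degrees of freedom) with a mean-variance trend and Benjamini-Hochberg adjustment. Lower bounds are explained at first use. Replicate differences correlated across genes at 0.436 between HFGSC and HF, 0.757 between GSC and HF and 0.58 between HFGSC and GSC. On this basis, and on no label, same-numbered arrays were treated as pairs in the blocked fit. The fit without the block stayed the reported one. Since no label ties replicates to separate animals, p-values reflect the spread among these samples alone, which may be technical. The model was tested on simulated data. All genes of the set were named with all their probes, and from each list some of the genes with the smallest adjusted p. Other named genes were chosen after their values were seen. The genes and lists were chosen with earlier results of these data known. Alternatives are given in the closing section.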

Additional observations from a re-analysis of the deposited data

How the results depend on the processing

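The counts over all genes and over the set and the log2 differences of the 8 tested genes were recomputed under 15 alternatives: the authors' deposited values, median scaling, no background correction, no or a stricter detection filter (p under 0.01), every probe, the mean of a gene's detected probes, no mean-variance trend, the replicate block, and each array left out. Against HF no difference of the 8 tested genes changed sign. In HFGSC against GSC, where none passed, Esrrb turned to -0.030 with median scaling and -0.038 with the mean of detected probes. With 1 array left out Esrrb ran between -0.222 and 0.354, Klf4 between -0.321 and 0.734 and Klf5 between -0.906 and 0.158, and the sign turned for Esrrb without GSC replicate 1 (-0.222), for Klf4 without HFGSC replicate 2 (-0.321) or GSC replicate 1 (-0.046), and for Klf5 without HFGSC replicate 1 (0.158) or GSC replicate 2 (0.128). The cause was not tested. With the replicate block 5122 genes passed in HFGSC against HF, 5669 in GSC against HF and 174 in HFGSC against GSC, in place of 2896, 3501 and 48, and of the 8 genes 1 passed in place of 0 in HFGSC against GSC. The block changed no other call of the 8 genes than those of Pou5f1. Without the trend 13 genes passed in HFGSC against GSC. With 1 array left out, the genes that passed numbered 1371 to 2860 in HFGSC against HF, 1699 to 3876 in GSC against HF and 0 to 54 in HFGSC against GSC. Of the 8 genes 3 to 5 passed in HFGSC against HF, 3 to 8 in GSC against HF and 0 in HFGSC against GSC. The same 15 alternatives for the lists were added after seeing the data, and lost calls of named genes and the counts that moved most stand beside the lists. Of the repressors 2 to 4 passed as higher in both comparisons with HF. Of the primed and lineage genes 1 to 3 passed as higher and 2 to 3 as lower in HFGSC, and 1 and 2 to 3 in GSC. A group left with 1 array was taken to vary like the others. Nanog, Sox2 and probes near background have no measured level, and folds of genes not detected in HF are lower bounds.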

Other observations

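The replicates of each group differed in a gene-dependent way. Klf5 was higher on replicate 2 than on replicate 1 by 1.06 log2 units in HFGSC, 1.00 in GSC and 0.50 in HF, and Klf4 by 1.06, 0.50 and 1.41. Tcl1 was lower on replicate 2 in each group (-0.72, -0.28 and -0.27), as was Zfp42 (-0.52, -0.05 and -0.24). Pou5f1, Klf2 and Esrrb differed in sign between groups.

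Pou5f2, a testis-expressed relative of Pou5f1 that was in no list and was chosen after its values were seen, read 9.02 and 6.62 in HFGSC, 8.60 and 8.03 in GSC, and 8.38 and 6.00 in HF. It did not pass in HFGSC or GSC against HF (limma adjusted p = 0.678 and 0.426).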
